A study of Homo sapiens with 9 samples.

Results

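R50_OFF, a temozolomide-resistant line of U87MG cells from which the drug had been withdrawn, was compared with the parental U87MG line. U87MG is an established human glioblastoma cell line obtained from a cell repository, and temozolomide (TMZ) is an alkylating drug given against glioblastoma. The comparison rests on 6 of the 9 libraries of the series, chosen by their titles: 3 of R50_OFF, a clonal line exposed to 50 µM TMZ and relieved of the drug after 2 months, and 3 of the parental control line (parent). The other 3 libraries belong to R50, a clonal line kept continuously in 50 µM TMZ, and are given beside the results where they help to place a value. All groups share the same EMEM medium with fetal bovine serum. Each resistant line is 1 clonal line, and the labels do not say that its replicates were separate cultures, so the p-values cover the spread among these libraries alone, and that spread may be technical.

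TMZ adds methyl groups to DNA. Methylated guanine mispairs with thymine, and mismatch repair that acts on such pairs is known to lead to strand breaks, arrest and cell death, while base excision repair removes other methylated bases. Drug exposure, cloning and time in culture differ together between R50_OFF and parent, and their parts cannot be told apart in 1 clonal line.

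Of 33264 genes in the deposited table, 16456 reached the minimum value of 10 in 3 or more of the 9 libraries and were tested. Values are the deposited signal, normalized between libraries and divided by transcript length, so that levels of different genes can be set side by side per kilobase. A gene is called higher or lower where limma's adjusted p on log2(value + 1) was under 0.05, and each change below is the log2 change of R50_OFF relative to parent on that scale, which understates changes of low genes. By this rule 4334 genes (26.3% of those tested) were higher and 4231 (25.7%) were lower, together 52.0%. Counts in the gene lists below are to be read beside these shares. At least 2-fold changes were found for 1238 higher genes (7.52%) and 841 lower genes (5.11%), and 55.4% of all calls were under 1.5-fold. The large changes were mostly rises: 185 genes were at least 16-fold higher and 54 at least 16-fold lower, and 32 and 8 passed 64-fold. In 10330 genes (62.8%) the 3 libraries of one group lay beyond all 3 of the other. Traced back to the smallest whole reads that fit, the libraries held 28.7 M to 35.8 M reads each.

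Small changes went with transcript length. Among 8059 protein-coding genes at or above the median level, the 214 with a longest transcript of up to 1 kb were higher in 65.4% and lower in 11.2%, whereas the 192 with one of over 12 kb were higher in 12.5% and lower in 64.6%. Their median log2 changes were 0.29 and -0.35, with the other length classes in order between them. The GC content of the transcript went with the change as well, with medians from -0.15 in the 1775 genes of up to 42% GC to 0.13 in the 1549 genes of over 58% GC. Across these genes Spearman's rho of the change was -0.34 with length and 0.28 with GC, as a description, since genes of 1 library share its RNA and its preparation. What part length has in a group of genes that changed little was not tested. Counts of a fit adjusted for transcript length are given beside unadjusted ones mainly where they turn or clearly move the balance of a group. A group given without them was not always unchanged. Most genes named below were taken by a rule that kept called genes whose R50_OFF and parent libraries do not overlap, so the absence of overlap in them follows from that choice. With that adjustment 1203 genes were at least 2-fold higher and 825 at least 2-fold lower.

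**Figure D1:**
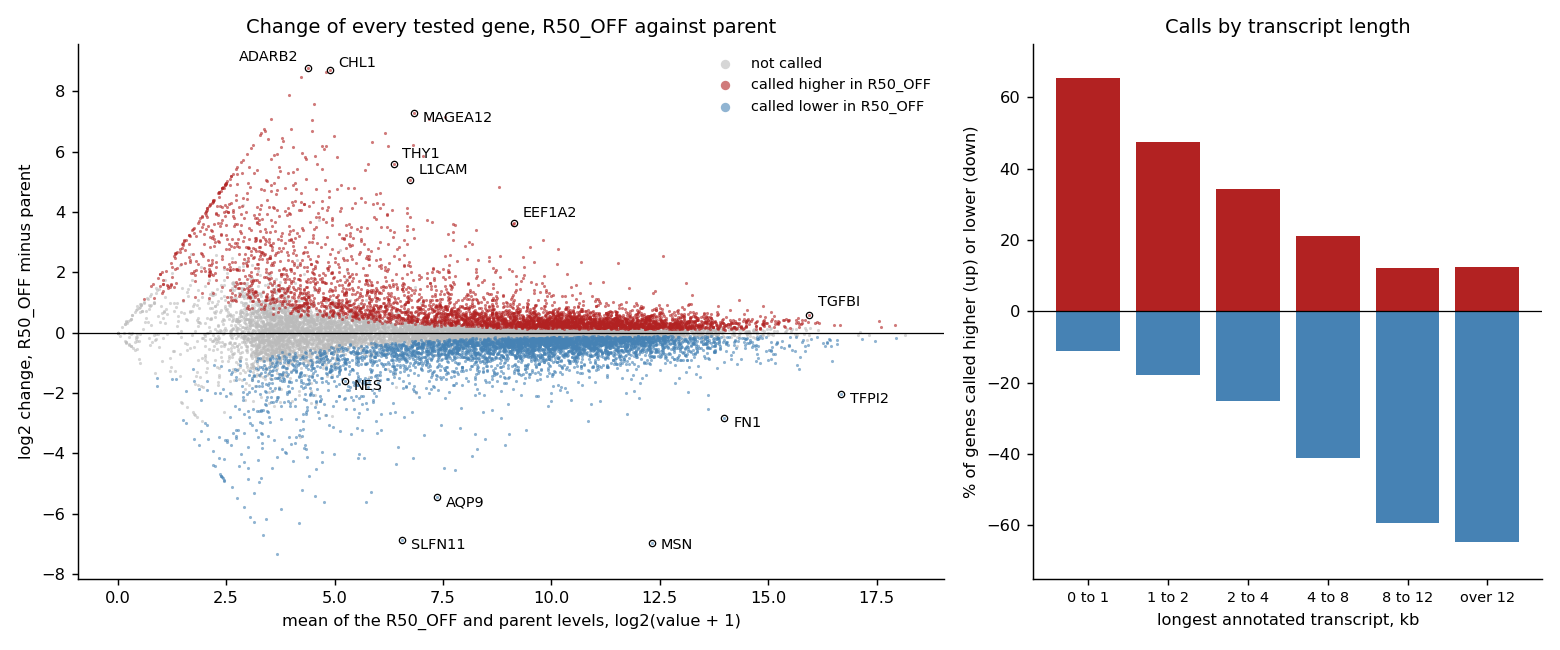
Left, log2 change of R50_OFF minus parent against mean level on the log2(value + 1) scale for each of the 16456 tested genes, red where called higher, blue where called lower and grey where not called. Right, the share of 8059 protein-coding genes called higher (red, upward) or lower (blue, downward) by the length of the longest annotated transcript in kb. Calls shift from 65.4% higher in the shortest class to 64.6% lower in the longest.

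The markers of other cell types were mostly low in both groups. VIM, the intermediate filament vimentin, and CD44, a hyaluronan receptor, were among the high transcripts of all 9 libraries, whereas the astrocyte filament gene GFAP and the efflux pump gene ABCB1 did not reach the minimum value. Of 6 tested glial markers 2 were higher and 2 lower, and the list summed to 7853 in R50_OFF and 6131 in parent, most of it SLC1A3, a glutamate carrier, and GJA1, a connexin. Of 11 tested fibroblast and mesenchymal markers 1 was higher and 6 lower, with sums of 336740.0 in R50_OFF and 407304 in parent, most of it VIM. The summed level of the 5 tested leukocyte markers was 1051 in R50_OFF and 1594 in parent, most of it CSF1R, while CD3E and CD3D were listed at 0. The 7 tested endothelial markers summed to 172 in R50_OFF and 409 in parent, most of it PECAM1, while EMCN was listed at 0. The 7 tested epithelial markers summed to 809 in R50_OFF and 259.9 in parent, most of it the keratin genes KRT8 and KRT18. The epithelial cadherin gene CDH1 did not reach the minimum value. In bulk RNA such as this, fewer cells that express a gene and less RNA per cell cannot be told apart.

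X-linked cancer-testis genes were among the groups with the largest rises. Such genes are normally active in germ cells, are silent in most adult tissues, are held silent by DNA methylation of their promoters, and are reactivated in many tumours. Of 21 tested members of a list of these genes, 13 were higher and 4 lower in R50_OFF, with a median log2 change of 1.18 beside 0.004 over all tested genes. The promoters of the 3 that rose most are shown because 2 of them are read from overlapping DNA. The sequences are the 250 bases before the annotated start, from RefSeq on GRCh38.p14, 5′ to 3′ on the gene's own strand, with every CG dinucleotide in capitals, since CG is the site of DNA methylation.
CSAG1, chrX:152733722-152733971, minus strand: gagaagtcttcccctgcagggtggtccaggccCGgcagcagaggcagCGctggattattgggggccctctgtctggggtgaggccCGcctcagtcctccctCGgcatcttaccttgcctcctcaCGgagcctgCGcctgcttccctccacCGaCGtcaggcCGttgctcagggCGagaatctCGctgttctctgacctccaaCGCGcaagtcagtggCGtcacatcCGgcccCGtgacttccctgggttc
MAGEA12, chrX:152733507-152733756, plus strand: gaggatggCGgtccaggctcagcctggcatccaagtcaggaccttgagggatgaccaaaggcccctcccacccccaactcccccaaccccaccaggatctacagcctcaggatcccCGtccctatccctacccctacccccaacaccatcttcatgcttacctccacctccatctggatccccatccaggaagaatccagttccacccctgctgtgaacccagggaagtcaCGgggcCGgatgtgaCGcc
MAGEB2, chrX:30215313-30215562, plus strand: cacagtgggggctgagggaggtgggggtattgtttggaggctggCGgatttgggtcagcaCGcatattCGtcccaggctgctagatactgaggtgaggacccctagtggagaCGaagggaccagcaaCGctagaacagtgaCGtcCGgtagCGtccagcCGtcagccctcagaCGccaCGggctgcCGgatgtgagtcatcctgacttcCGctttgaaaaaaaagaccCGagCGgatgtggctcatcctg

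The annotated start of CSAG1 and the nearer start of MAGEA12 lie 36 bases apart on opposite strands, so the 2 windows cover overlapping DNA and read away from each other. The second annotated start of MAGEA12 lies 141 bases from that of CSAG1. The windows hold 16 CG in CSAG1, 5 before the nearer and 13 before the farther start of MAGEA12, and 15 in MAGEB2. Over all 35116 promoters of the reference table the median was 11 CG, and 93.9% held at least 1, while over the 11231 tested genes with a promoter in the table the median was 21 CG. The ETS core GGAA, or TTCC on the other strand, which cannot overlap it, was found in 92.9% of the 14 promoters of higher cancer-testis genes and in 92.7% of all promoters. TATAAA, or TTTATA on the other strand, which can overlap it, was in 0 of these 14 and in 10.7% of all promoters.

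MAGEA12 had 1371, 1364 and 1453 in R50_OFF, 1428, 1373 and 1458 in R50 and 5.16, 10.2 and 9.502 in parent libraries. CSAG1, its divergent neighbour, had 2196, 2182 and 2211 in R50_OFF, 2379.9, 2147 and 2407 in R50 and 16.95, 17.3 and 10.4 in parent. R50_OFF and R50 lay together and far above parent for both genes, with changes of 7.28 (SE 0.18, adjusted p = 9.31e-10) and 7.14 (SE 0.15, adjusted p = 3.06e-10). R50_OFF and R50 did not differ past the threshold for either (adjusted p = 0.919 and 0.706). In that comparison 59.5% of all tested genes were called in either direction. MAGEB2, which lies elsewhere on the X chromosome, had 1645, 1639 and 1731 in R50_OFF, 46.8, 35.1 and 68.9 in R50 and 13.4, 10.5 and 10.5 in parent. Here R50_OFF stood far above both other groups, with a change of 7.07 from parent (SE 0.20, adjusted p = 2.19e-09) and of 5.08 from R50 (adjusted p = 1.28e-08). CT45A1 had 455, 411 and 339 in R50_OFF, against 26.7, 35.9 and 20.5 in parent, a change of 3.84 (adjusted p = 5.08e-08). Genes of this list outside the naming rule, given here after their values were seen, moved in both directions. SPANXB1 was 1899 ± 29.9 in R50_OFF and 159 ± 40.3 in parent, MAGEA3 865 ± 22.4 in R50_OFF and 166 ± 11.5 in parent, and MAGEC2 1945 ± 31.98 in R50_OFF and 272 ± 10.4 in parent (SD, n = 3 each). The tumour antigen gene CTAG2 went the other way, listed at 0 in every R50_OFF library, against 66.6, 63.7 and 73.9 in parent. SSX1 was 8.63 ± 4.22 in R50_OFF and 63.5 ± 9.03 in parent. MAGE, CSAG, GAGE, SPANX and CT45 genes have near-identical copies, and how reads were shared among copies is not given in the sources used here, so each single value is uncertain.

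**Figure D2:**
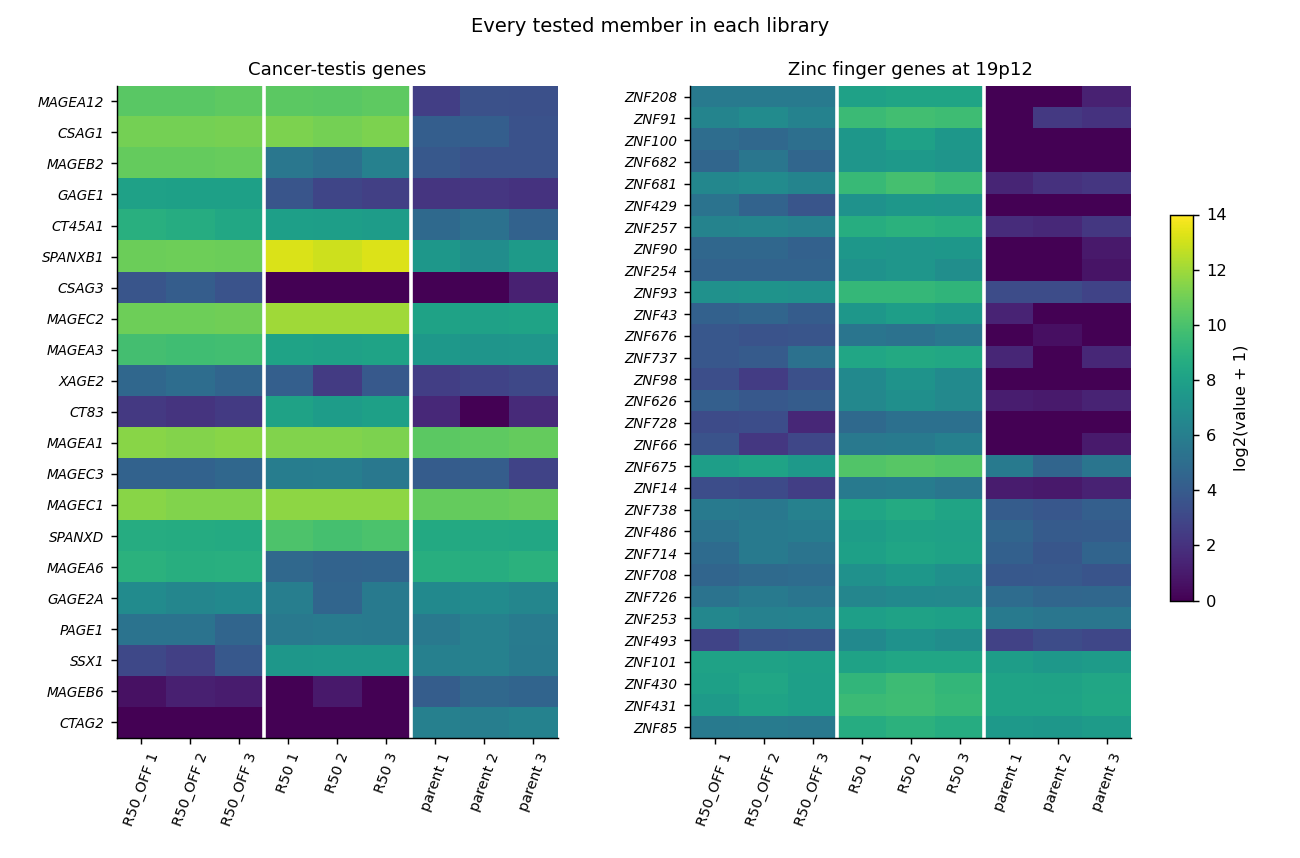
Levels of every tested cancer-testis gene (left) and every tested zinc finger gene of 19p12 (right) in each of the 9 libraries, R50_OFF first, then R50, then parent, coloured by log2(value + 1) from 0 to 14. MAGEA12 and CSAG1 are bright in the R50_OFF and R50 libraries and dark in parent, MAGEB2 is bright in R50_OFF alone, and 26 of the 30 zinc finger genes were called higher in R50_OFF.

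Of the other genes with large rises, the following lay at or above the median level of tested genes. CHL1, a cell adhesion protein of the L1 family, had 601, 564 and 566 in R50_OFF, 550.2, 646 and 575 in R50 and 1.57, 0 and 0 in parent (8.72, SE 0.30, adjusted p = 6.74e-09). ITM2A, a membrane protein, had 506, 521 and 561 in R50_OFF, 79.4, 75.04 and 67.1 in R50 and 0, 1.34 and 0 in parent (8.64, SE 0.29, adjusted p = 6.33e-09). ADARB2, a brain relative of the RNA-editing enzymes, had 428, 419 and 458 in R50_OFF, 2.42, 0 and 0 in R50 and 0 throughout parent, where it was listed at 0 (adjusted p = 1.32e-07). All R50_OFF libraries lay above every parent library in these 3 genes, but R50 was as high as R50_OFF in CHL1, lower in ITM2A and at or near 0 in ADARB2. RGS10, which shortens G protein signalling, had 643, 632 and 627 in R50_OFF, 331, 341 and 276 in R50 and 1.45, 14 and 6.12 in parent (6.63, SE 0.48, adjusted p = 1.23e-06). RGS10 was high in R50 as well. SIGIRR, a receptor that dampens interleukin-1 signalling, had 515, 502 and 504 in R50_OFF, 37.6, 38.03 and 55.5 in R50 and 34.8, 32.95 and 44.2 in parent (3.74, SE 0.17, adjusted p = 3.44e-08). EEF1A2, a translation elongation factor normally found in neurons and muscle, had 2108, 1889 and 1914 in R50_OFF, 393, 325 and 342 in R50 and 139, 170.2 and 168 in parent (3.63, SE 0.10, adjusted p = 1.44e-09). SIGIRR and EEF1A2 thus stood higher in R50_OFF than in either other group, with adjusted p = 3.71e-08 and 1.15e-08 against R50. CPVL, a carboxypeptidase, had 368, 461 and 381 in R50_OFF, 2.97, 0 and 9.402 in R50 and 22.3, 25.5 and 27.1 in parent, again above both. ARL10 at 6.33, the pseudogene NCOR1P4 at 6.20 and KLHL4 at 4.13 were also among the 20 largest rises at or above the median level of tested genes.

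The largest falls left several genes near 0 that were high in parent. MSN encodes moesin, which ties the plasma membrane to actin, and had 406, 460.1 and 502 in R50_OFF, 333, 394 and 476 in R50 and 57196, 58401 and 57975 in parent. Thus R50_OFF kept 0.789% of the parent level (-6.99, SE 0.11, adjusted p = 6.87e-11), and R50_OFF and R50 did not differ past the threshold (adjusted p = 0.161). SLFN11, which blocks replication in cells with damaged DNA and whose loss is known to go with resistance to DNA-damaging drugs, had 8.55, 5.698 and 8.96 in R50_OFF, 7.65, 10.9 and 3.23 in R50 and 1009.9, 1054 and 956 in parent. It was at 0.769% of parent. AQP9, a channel for water and glycerol, had 24.6, 24.2 and 22.6 in R50_OFF, 43.05, 42.2 and 40.7 in R50 and 1112, 1074 and 1095 in parent, a change of -5.47 (SE 0.09, adjusted p = 6.87e-11). TBX2, a T-box repressor, had 40.7, 39.2 and 53.5 in R50_OFF, 20.3, 19.4 and 21.97 in R50 and 1041, 1063 and 1058 in parent, a change of -4.55. Its antisense neighbour TBX2-AS1 had 79.6, 51.03 and 49.2 in R50_OFF, against 480.3, 520.0 and 492 in parent, and without a stated strand setting for the counting the reads of the pair may not be told apart. R50_OFF and R50 were both low in AQP9, TBX2 and TBX2-AS1. LMO2, a LIM-only factor of blood and vessel formation, had 27.02, 24.8 and 24.1 in R50_OFF, 5.44, 3.06 and 5.11 in R50 and 456, 484 and 475 in parent. ST8SIA5, a sialyltransferase of gangliosides, had 38.9, 36.6 and 37.7 in R50_OFF, against 702, 982 and 962 in parent. In all of these genes R50 lay with R50_OFF on the low side.

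Other large falls were in genes of the matrix, transport and metabolism. HAS1, a hyaluronan synthase, had 99.9, 93.1 and 88.5 in R50_OFF, against 993, 965 and 943 in parent. HMCN1, a giant basement membrane protein, had 95.01, 104 and 113 in R50_OFF, against 1205, 1171 and 1255 in parent. LRRC15, a membrane protein of activated fibroblasts, had 37.2, 43.5 and 40.2 in R50_OFF, against 409.7, 472 and 429 in parent. The groups were far apart in all 3, at -3.35, -3.53 and -3.41. SLC1A1, a neuronal glutamate carrier, changed by -3.35, and SLC26A4, an anion exchanger, by -3.17. PAMR1 changed by -4.09, and CYRIA, which binds RAC1, by -3.85. ARSD, a sulfatase family member, changed by -2.84. CHI3L1, a secreted glycoprotein and a marker of mesenchymal glioblastoma, had 672, 697 and 626 in R50_OFF, 14422, 14586 and 15444 in R50 and 5018, 5014 and 5149 in parent. It was 7.61 times lower in R50_OFF than in parent (-2.93, SE 0.05, adjusted p = 6.87e-11), while R50 stood above parent.

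**Figure D3:**
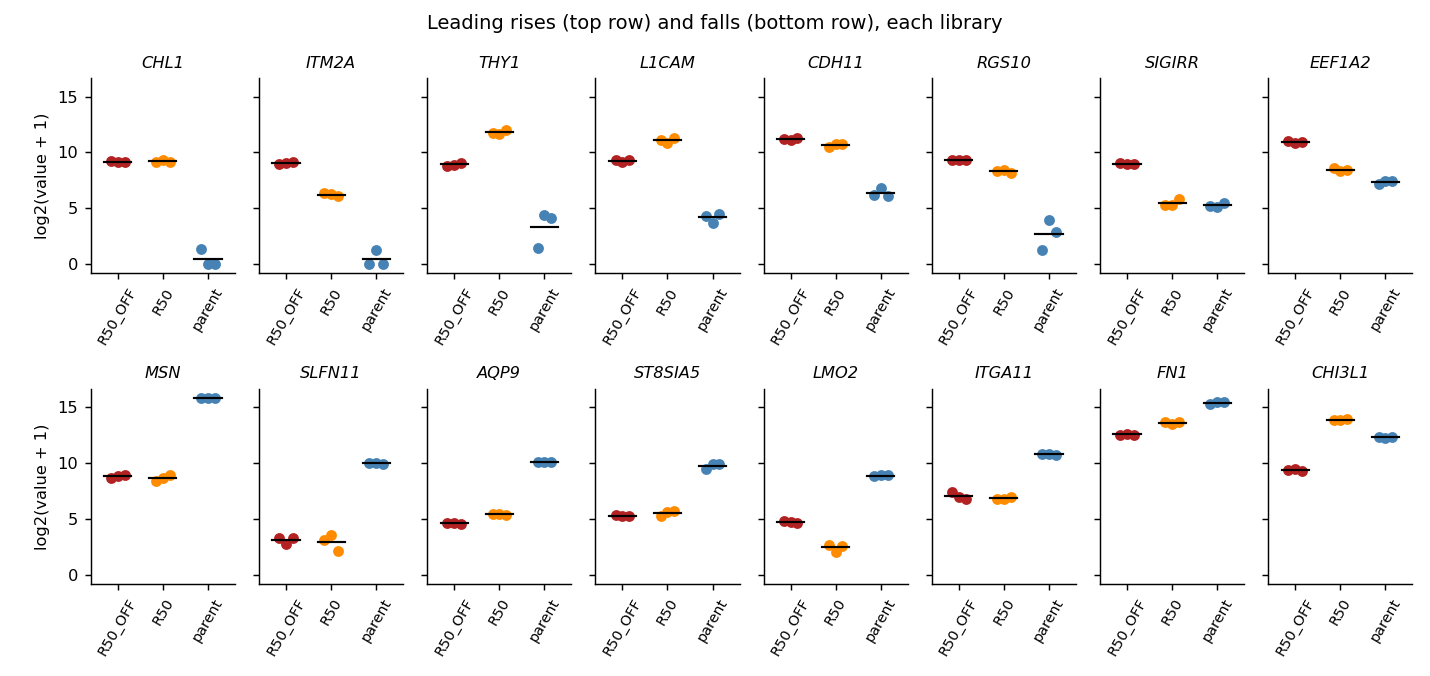
Level of 8 leading rises (top row) and 8 leading falls (bottom row) in each library as log2(value + 1), with R50_OFF in red, R50 in orange and parent in blue, points for libraries and black lines for group means. The genes were taken among those without overlap of R50_OFF and parent, and in CHI3L1 the R50 libraries lie above both.

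Ranked by the difference of mean level, which favours abundant transcripts, other genes came first. TFPI2, a secreted inhibitor of serine proteases, lost most, with 48069.7, 55552 and 53427 in R50_OFF, 30691, 34468 and 29310.0 in R50 and 222853, 206495 and 208908 in parent, or 24.6% of parent (-2.02, SE 0.07, adjusted p = 7.74e-09). Every R50_OFF library lay far below every parent library. ITGA3, an integrin subunit that binds laminin, had 66469.9, 63197 and 66231 in R50_OFF, against 117921, 129764 and 128048 in parent. MMP14, a membrane-bound matrix protease, had 34212, 35616 and 36150.4 in R50_OFF, against 79361, 81677 and 84141 in parent. NDRG1, a stress gene, had 36002, 36027 and 35961 in R50_OFF, against 65825, 80730.5 and 80129 in parent. These 3 fell. VIM changed by only -0.18 (adjusted p = 0.0237), with 250455, 228193 and 237840.0 in R50_OFF, against 271731, 272350.0 and 264414 in parent, and it ranks among the losses by its level. The call was lost without a filter on low values and without R50_OFF replicate 2 or 3 or parent replicate 1 or 2 (adjusted p = 0.0586 to 0.082). Among the gains, ACTB, cytoplasmic actin, had 232062, 207872 and 221249 in R50_OFF, against 168709, 171454 and 165835 in parent. HSP90AA1, a cytosolic chaperone, had 267599, 279401 and 267144 in R50_OFF, against 226044, 231084 and 220816 in parent. Actin and this chaperone rose by 0.38 and 0.26. TGFBI, a matrix protein induced by TGF-beta, had 80574, 75044 and 77397 in R50_OFF, against 46051, 56786 and 51962 in parent. IPO5, a nuclear import receptor, had 43914, 41811 and 38474 in R50_OFF, against 22632, 21999.9 and 21939.7 in parent. TGFBI and IPO5 rose by 0.59 and 0.90.

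Neural adhesion molecules, which link neurites and synapses, were higher more often than lower. Of 26 tested, 14 were higher, 13 of them at least 2-fold, and 8 were lower, with a median of 0.89. L1CAM, which guides neurite growth, had 619, 571 and 639 in R50_OFF, 2190.3, 1862 and 2517 in R50 and 18.97, 12.1 and 21.8 in parent (5.07, SE 0.18, adjusted p = 7.95e-09). TENM2, a teneurin of synaptic contacts, had 1199, 963 and 826 in R50_OFF, 12190.1, 11895 and 11883 in R50 and 22.6, 13.2 and 13.9 in parent (5.85, SE 0.18, adjusted p = 3.65e-09). THY1, a surface glycoprotein of neurons and mesenchymal cells, had 447, 477 and 538 in R50_OFF, 3448, 3241 and 4015 in R50 and 1.76, 20.03 and 16.7 in parent (5.59, SE 0.59, adjusted p = 1.8e-05). In these 3 genes R50_OFF lay between a higher R50 and a parent near 0, and differed from R50 (adjusted p = 8.82e-06, 5.91e-08 and 0.0016). NLGN4X, a neuroligin named after its values were seen, was 374, 341 and 341 in R50_OFF and listed at 0 in all parent libraries. CDH11, a mesenchymal cadherin, had 2344, 2245 and 2462 in R50_OFF, 1399, 1725 and 1771 in R50 and 71.7, 112 and 65.5 in parent (4.84, SE 0.17, adjusted p = 6.93e-09), in a list of 25 cadherins and protocadherins of which 10 were higher and 10 lower. With the length adjustment 12 of the cadherin list were higher and 7 lower. PCDH7, a protocadherin, fell to 191, 184 and 159.9 in R50_OFF, against 484, 493 and 525 in parent.

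Axon guidance genes moved in both directions, with 15 higher and 25 lower of 52 and a median of -0.28. With the adjustment for transcript length the counts were 17 and 19, with a median of -0.12. SEMA5A, a semaphorin, had 391, 418 and 388 in R50_OFF, against 1503, 1872 and 1736 in parent. SEMA6B, a transmembrane semaphorin, had 452, 414 and 481 in R50_OFF, against 74.96, 78.5 and 74.4 in parent. SEMA5A fell and SEMA6B rose. The receptor gene ROBO2 had 538, 565 and 537 in R50_OFF, 10.4, 9.17 and 12.5 in R50 and 164, 199 and 188 in parent. EPHB4, an ephrin receptor, had 604, 592 and 593 in R50_OFF, against 161, 156 and 165 in parent. ROBO2 and EPHB4 rose, and ROBO2 was higher in R50_OFF than in R50 as well (adjusted p = 3.36e-10). Of 23 synaptic and neuronal markers, 9 were higher and 9 lower. At least 2-fold changes were found for 4 of the higher and 1 of the lower genes. Among those the rule named, SNAP25, a protein of vesicle fusion, changed by -0.67, SYT1, its calcium sensor, by -0.74, DLG4, a scaffold of the postsynaptic side, by -0.60 and ENO2, a neuronal enolase, by -0.68. The rises, with values seen before they were chosen, included SYN1, a synaptic vesicle protein, at 3.09 and SCG2, a granin, at 1.35. SYNDIG1, which regulates synapse development, was 6.64 ± 2.02 in R50_OFF and 365 ± 47.6 in parent (change -5.61), named after its values were seen.

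Receptor and channel genes moved in both directions within families. Among 11 glutamate and GABA receptor genes, 4 were higher and 4 lower, and the members that follow were picked for their change. The GABA receptor subunit gene GABRA5 had 41.5, 51.8 and 40.1 in R50_OFF and was listed at 0 in each parent library. GABRB1, a beta subunit, had 3.43, 7.13 and 0 in R50_OFF, against 149, 168 and 169.9 in parent, and the glutamate receptor gene GRIA3 was listed at 0 in every R50_OFF library, against 20.6, 24.1 and 34.99 in parent. Rises and falls thus stood side by side in 1 family, all at low levels. Of 32 potassium, sodium and calcium channel genes, 13 were higher and 8 lower. The higher count was 8 without R50_OFF replicate 1 and 5 without R50_OFF replicate 2. KCNG1, a modifier subunit of potassium channels, had 613, 559.9 and 595 in R50_OFF, against 251, 222 and 256 in parent. KCNMA1, a calcium-gated potassium channel, had 1460.1, 1434 and 1503 in R50_OFF, against 2397, 2594 and 2515 in parent. CACNA1A, a calcium channel of synapses, had 413, 442 and 464 in R50_OFF, against 1052, 990.2 and 1027 in parent. KCNG1 rose and the other two fell.

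Integrins, the receptors that bind cells to the matrix, were mostly lower: of 20 tested, 13 were lower, 7 of them at least 2-fold, and 3 higher, with a median of -0.69. Adjusted for length the counts were 13 lower and 3 higher, with a median of -0.54. ITGA11, a collagen receptor, had 170.2, 121 and 112 in R50_OFF, 112, 109 and 124 in R50 and 1779, 1850.3 and 1701 in parent (-3.74, SE 0.14, adjusted p = 8.48e-09). ITGA7, a laminin receptor, had 602, 623 and 656 in R50_OFF, 2359, 2114 and 2477 in R50 and 1859, 2228 and 2166 in parent. ITGB3, a partner of the alpha-V subunit, had 1676, 1761 and 1702 in R50_OFF, against 3440.0, 3628 and 3653 in parent. All 3 fell, and R50 lay with parent in ITGA7. ITGA6, another laminin receptor, had 679.6, 775 and 742 in R50_OFF, 152, 187 and 161 in R50 and 57.6, 61.97 and 59.4 in parent (3.59, SE 0.10, adjusted p = 1.44e-09).

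Collagens were lower more often than higher, while the large matrix glycoproteins were divided. Of 23 collagen chains, 13 were lower and 4 higher, with a median of -0.68 (-0.56 adjusted for length). COL5A2, a chain of fibrils, had 125, 133 and 154 in R50_OFF, 271, 273 and 294 in R50 and 781, 911 and 880.1 in parent (-2.64, SE 0.09, adjusted p = 7.64e-09). COL7A1, of anchoring fibrils, had 1706, 1992 and 1909 in R50_OFF, against 5296, 5678 and 5039 in parent. Both fell. COL12A1, which coats fibrils, had 303, 303 and 286 in R50_OFF, against 777, 707 and 772 in parent. COL4A5, a chain of basement membranes, had 274, 249.8 and 259.8 in R50_OFF, 565, 616 and 738 in R50 and 675, 695 and 655 in parent. R50_OFF was lowest of the 3 groups in COL5A2, COL12A1 and COL4A5. Of 44 matrix glycoproteins and proteoglycans, 17 were lower and 14 higher. FN1, fibronectin, had 5984, 6385 and 5854 in R50_OFF, 12893, 11856 and 12891 in R50 and 40631, 45247 and 45132 in parent, and was 7.19 times lower in R50_OFF than in parent. FBN1, fibrillin-1 of microfibrils, had 1364, 1416 and 1278 in R50_OFF, 1575, 1528 and 1454 in R50 and 8166, 9002 and 9129 in parent. Its relative FBN2, of early tissues, had 603, 659 and 615 in R50_OFF, 274, 219 and 274 in R50 and 104, 120.2 and 116 in parent. FBN1 fell by 2.69 and FBN2 rose by 2.45. FBLN1, fibulin-1, had 628, 618 and 556 in R50_OFF, 1614, 1431 and 1606 in R50 and 49.5, 68.97 and 69.4 in parent, a rise of 3.26.

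Matrix proteases and their inhibitors included 22 lower and 9 higher of 40, with a median of -0.37. ADAMTS1, a protease of proteoglycans, had 2013, 1927 and 1935 in R50_OFF, 514, 551 and 429.9 in R50 and 7237, 7883 and 7551 in parent. ADAMTS12, of the same family, had 512, 531 and 534 in R50_OFF, against 1316, 1284 and 1329.5 in parent. TIMP3, a matrix-bound inhibitor of such proteases, had 1529.5, 1507 and 1530.5 in R50_OFF, 4931, 4539.6 and 5123 in R50 and 481, 607 and 625 in parent. The 2 proteases fell and the inhibitor rose. Of 37 linkers of membrane and actin, 12 were higher and 12 lower (14 and 11 adjusted for length), and MSN stood far from the rest. TLN1, talin-1, which couples integrins to actin, had 26903, 24743 and 24479.6 in R50_OFF, against 47867, 46355 and 45575 in parent. FLNC, a filamin, had 1275, 1209.6 and 1152 in R50_OFF, against 2512, 2506 and 2416 in parent. CNN2, a calponin, had 3127, 2799.6 and 2992 in R50_OFF, against 1395, 1489.7 and 1396 in parent. TLN1 and FLNC fell by 0.88 and 1.03 and CNN2 rose by 1.06.

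**Figure D4:**
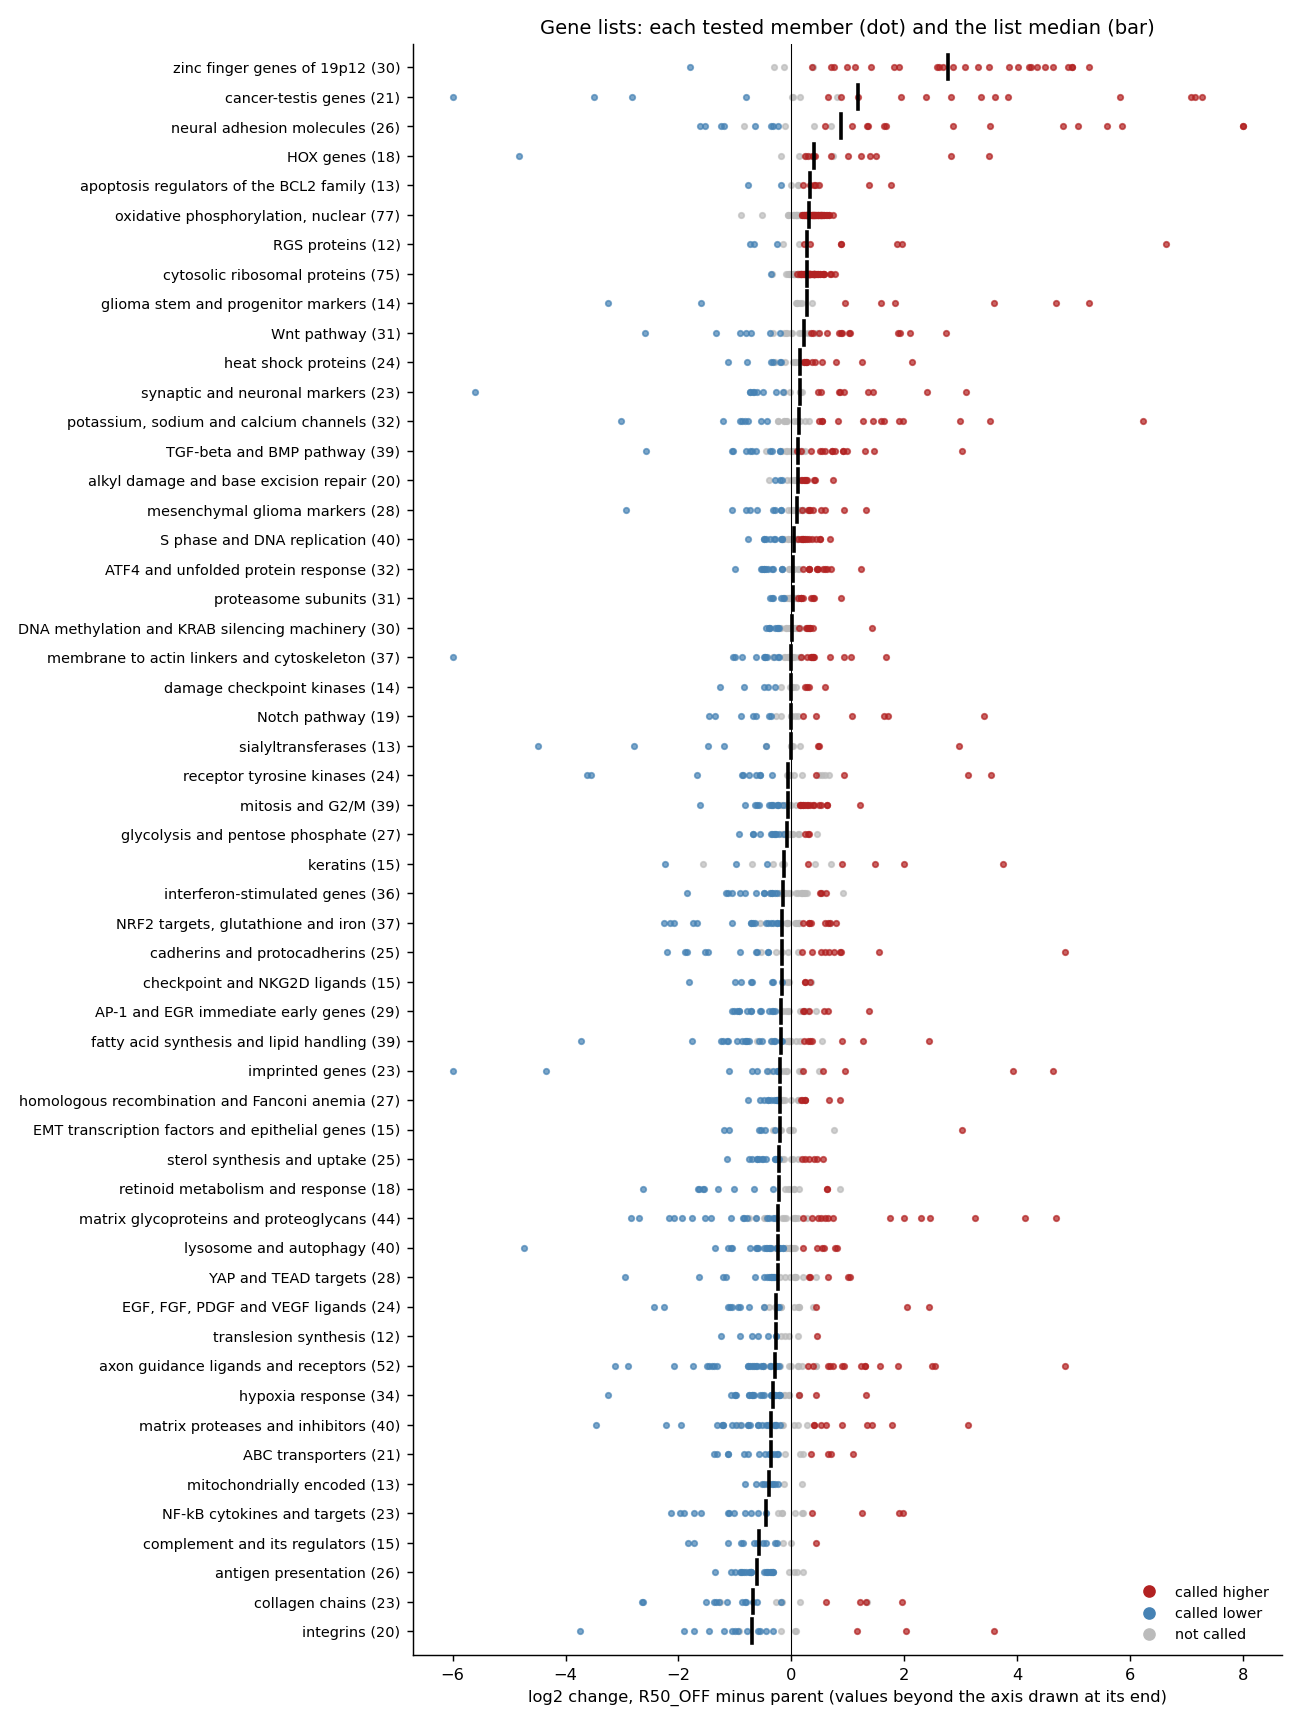
Log2 change of R50_OFF minus parent for each tested member (dots) of the gene lists with at least 12 tested members, 1 such list not drawn, with the list median as a black bar, red dots called higher, blue called lower and grey not called. Lists are ordered by median, from integrins and collagens at the low end to neural adhesion molecules, cancer-testis genes and 19p12 zinc fingers at the high end, and values beyond the axis are drawn at its end.

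In every immune list more members were lower than higher. Antigen presentation genes, which build and load the HLA molecules, were lower in 22 of 26 and higher in 0, with a median of -0.60, and adjusted for length 21 were lower with a median of -0.61. HLA-DPA1, of class II, had 1663, 1415 and 1389 in R50_OFF, 409, 403 and 465 in R50 and 2650.3, 2900.3 and 2833 in parent. HLA-DPB1, its partner chain, had 834, 646 and 691 in R50_OFF, 331, 310.1 and 338 in R50 and 1259.8, 1336 and 1365 in parent. R50_OFF lay between a lower R50 and a higher parent in both. HLA-B, of class I, had 6964, 6933 and 7000.4 in R50_OFF, 19372, 17177 and 19020.2 in R50 and 12654, 12941 and 13193 in parent, with R50 above parent and R50_OFF below. ERAP2, which trims peptides, had 1187, 1291 and 1122 in R50_OFF, against 2565, 2496 and 2453 in parent. HLA genes share sequence and differ between alleles, so their single values are uncertain. Complement genes were lower in 11 of 15 and higher in 1. With the length adjustment the counts were 8 and 1. C3, the central component, had 661, 678 and 655 in R50_OFF, 4487, 4743 and 5156 in R50 and 2979.7, 1870.2 and 2408 in parent. C1RL, a protease related to C1r, had 718, 729.6 and 743 in R50_OFF, 2314, 2204 and 2750.4 in R50 and 1185, 1147 and 1148 in parent. Both were lowest in R50_OFF and highest in R50.

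Cytokine genes under NF-kB control were lower in 12 of 23 and higher in 4, with a median of -0.45. IL1B, an inflammatory cytokine, had 4466, 4654 and 4532 in R50_OFF, 257, 227 and 243 in R50 and 19401, 16029 and 18565 in parent (-1.98, SE 0.07, adjusted p = 8.49e-09). LIF had 565, 633 and 614 in R50_OFF, 162, 209 and 205 in R50 and 2560.2, 1973 and 2314 in parent. CSF3, a granulocyte growth factor, had 954, 1126 and 1266 in R50_OFF, 135, 119.6 and 158 in R50 and 2957, 1776 and 2552 in parent. In these 3 genes R50_OFF lay between parent and a still lower R50. IL11, of the interleukin-6 family like LIF, had 821, 836 and 906 in R50_OFF, against 360.3, 351 and 368 in parent. IL11 rose by 1.25. Interferon-stimulated genes were higher in 3 and lower in 14 of 36. The antiviral genes IFITM1, IFITM2 and IFITM3, given below with their neighbours, were not in this list and were at least 2-fold higher. STAT2, a signal carrier of the interferon receptor, had 258, 255 and 187 in R50_OFF, against 444, 416 and 443 in parent. SAMD9L had 208, 234 and 239 in R50_OFF, against 356, 409 and 453 in parent. Both fell, by 0.91 and 0.83. IFI44L had 1224, 1227 and 1253 in R50_OFF, 368, 479 and 451 in R50 and 877, 898 and 831 in parent. IFI6 had 639, 579 and 678 in R50_OFF, against 482, 429.6 and 407 in parent. IFI44L and IFI6 rose by 0.51 and 0.52. Of 15 checkpoint and NKG2D ligands, 8 were lower and 3 higher. Adjusted for length, 0 were higher and 7 lower. CD274, the checkpoint ligand PD-L1, had 264, 253 and 219 in R50_OFF, against 499, 463 and 505 in parent. CD276, of the same family, had 4863, 4674 and 4766 in R50_OFF, against 8641, 8765 and 9285 in parent. MICA, a ligand of natural killer cells, had 646, 664 and 689 in R50_OFF, against 1017, 1125 and 1114 in parent. CD47, which restrains phagocytes, changed by -0.33, a call lost with the adjustment for length and GC (adjusted p = 0.0808).

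Growth factor ligands were lower in 11 and higher in 3 of 24. HGF, the ligand of MET, had 981, 1076 and 975 in R50_OFF, 67.96, 76.7 and 75.02 in R50 and 4496, 5131 and 4851 in parent (-2.25, SE 0.07, adjusted p = 4.53e-09). NRG1, neuregulin-1, had 444, 394 and 417 in R50_OFF, 255, 297 and 215 in R50 and 2476, 2158 and 2134 in parent (-2.43, SE 0.11, adjusted p = 3.8e-08). In both genes R50_OFF lay between parent and a lower R50. HBEGF, a ligand of the EGF receptor, had 1036, 1007 and 1070.1 in R50_OFF, against 2063, 1863 and 2060.3 in parent. FGF2 had 168, 208 and 209 in R50_OFF, against 451, 399 and 399.5 in parent. All 4 fell. Of 24 receptor tyrosine kinase genes, 4 were higher and 10 lower. Adjusted for length, 8 were higher and 9 lower, and the median was 0.12 beside -0.05. MET had 15056, 15365 and 14527 in R50_OFF, 9509, 10300.2 and 9298 in R50 and 23353, 23244 and 23005 in parent. PDGFRB, a receptor of platelet-derived growth factor, had 654, 689.9 and 619 in R50_OFF, against 1062, 1203 and 1280.0 in parent. Both fell, by 0.63 and 0.85. TYRO3, a receptor of the TAM family, had 4551, 4113 and 4297 in R50_OFF, 2287, 2274 and 2527 in R50 and 2398, 2156 and 2211 in parent, above both other groups. EGFR had 1996, 2082 and 1980.4 in R50_OFF, against 2158, 2138 and 2094 in parent, with no call (change -0.08, adjusted p = 0.264), and with the length adjustment it was 0.18 higher (adjusted p = 0.00513).

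Early response and feedback genes of the ERK pathway moved in both directions. Of 29 AP-1, EGR and feedback genes, 14 were lower and 6 higher. DUSP6, an ERK phosphatase, had 2162, 2334 and 2237 in R50_OFF, 570.0, 605 and 706 in R50 and 3901, 4291 and 4580.4 in parent. DUSP5, of the same family, had 557, 528 and 679 in R50_OFF, against 1213, 1149 and 1181 in parent. Both phosphatases fell. SPRY4, a Sprouty inhibitor, had 794, 732 and 740.4 in R50_OFF, 129, 139 and 166 in R50 and 1435, 1497 and 1499 in parent. SPRY2, of the same family, had 914, 1011 and 1002 in R50_OFF, against 1753, 1845 and 1938 in parent. R50_OFF lay below parent in all 4, and above R50 in DUSP6 and SPRY4 (adjusted p = 2.58e-08 and 6.81e-09). Of 28 YAP and TEAD targets, 14 were lower and 5 higher. DLC1, which switches off small GTPases, had 1150.5, 1146 and 1206 in R50_OFF, against 3698, 3675 and 3553 in parent. DOCK5, an activator of RAC, had 1437, 1444 and 1408 in R50_OFF, against 3213, 3135 and 3190.3 in parent. F3, tissue factor, had 422, 437 and 456 in R50_OFF, against 983, 942 and 1113 in parent. These 3 fell. WWC1, an upstream regulator of the pathway, rose, with 1854, 1753 and 1898 in R50_OFF, against 906, 819.9 and 1024 in parent.

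The TGF-beta and BMP list was split, with 15 higher and 11 lower of 39 (18 and 9 adjusted for length). SMAD7, a feedback inhibitor, had 1346, 1291 and 1629.6 in R50_OFF, against 694, 779 and 789 in parent. TGFB3, a ligand, had 495, 504 and 561 in R50_OFF, against 324, 289 and 301 in parent. Both rose. GREM1, a BMP antagonist, had 2439, 2466 and 2466 in R50_OFF, 9459.6, 11001 and 9366 in R50 and 5019.7, 5327 and 4884 in parent. ENG, a co-receptor, had 653, 618 and 667 in R50_OFF, against 1074, 1183 and 1109 in parent. GREM1 and ENG fell by 1.05 and 0.80. The Wnt list had 13 higher and 7 lower of 31. LGR4, the receptor of R-spondins, had 634, 605 and 635 in R50_OFF, against 1559, 1569 and 1600.5 in parent. TCF7, a transcription factor of the pathway, had 1095, 1031 and 1117 in R50_OFF, against 1936, 2144 and 2018 in parent. Its relative TCF7L2 had 452, 512 and 483 in R50_OFF, against 212, 291 and 276 in parent. LGR4 and TCF7 fell and TCF7L2 rose. In the Notch list 6 of 19 were higher and 7 lower. Adjusted for length, 8 were higher and 6 lower. NOTCH3 had 1642, 1612 and 1437 in R50_OFF, against 450.1, 528 and 523 in parent. NOTCH2 had 6876, 6637 and 6109 in R50_OFF, against 12444, 11965 and 12056 in parent. NOTCH3 rose by 1.64 and NOTCH2 fell by 0.90. HES1, a Notch target named after its values were seen, was 251 ± 3.61 in R50_OFF and 22.6 ± 2.399 in parent, a rise of 3.42. Of 12 RGS genes, 7 were higher and 3 lower, RGS10 by far the most.

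Cell cycle genes moved both ways by small amounts. Of 40 genes of S phase and replication, 13 were higher and 10 lower, none by 2-fold. Of 39 genes of mitosis, 16 were higher and 13 lower. The called shares were 57.5% and 74.4%, beside 52.0% over all tested genes. Adjusted for length the counts were 10 and 7 in S phase genes and 11 and 13 in mitosis genes. The higher count of mitosis genes was 10 without parent replicate 2. MYBL2, a regulator of late cell cycle genes, had 3161, 2793 and 3065 in R50_OFF, against 1327, 1253 and 1291 in parent. It rose by 1.22. MKI67, the proliferation marker Ki-67, had 11217, 11812 and 10555 in R50_OFF, against 18285, 17079 and 17022 in parent. ASPM, of the spindle pole, had 212, 228 and 202 in R50_OFF, against 688, 702 and 600.4 in parent. CENPE, a kinetochore motor, had 2188, 2586 and 2079 in R50_OFF, against 4047, 4037 and 3953 in parent. These 3 fell by 0.64, 1.63 and 0.82. GINS3, of the replicative helicase, had 2446, 2333 and 2467 in R50_OFF, against 1569, 1485 and 1449 in parent. GINS4, of the same complex, had 1558, 1703 and 1654 in R50_OFF, against 2821, 2699 and 2871 in parent. They moved in opposite directions. CDK6, a D-cyclin partner, rose by 0.59, and RBL1 and RBL2, relatives of the retinoblastoma protein, fell by 0.49 and 0.55.

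Genes of arrest and cell death moved in both directions. CDKN1A, the gene of the p21 inhibitor of cyclin-dependent kinases, had 3728, 3563 and 3542 in R50_OFF, 9383, 8472 and 9411 in R50 and 4504, 4596 and 4598 in parent (-0.34, SE 0.05, adjusted p = 0.00018). CDKN1A was below both other groups. FAS, a death receptor, had 357, 403 and 396 in R50_OFF, 607, 754 and 572 in R50 and 1047, 1036 and 985 in parent. PLK2 had 1122, 1052 and 1123 in R50_OFF, 3109, 3565 and 2540.3 in R50 and 1757, 1491 and 1334 in parent, both lower than in parent. PHLDA3, an inhibitor of AKT, had 5064, 4951 and 5378 in R50_OFF, against 3779, 3753 and 3471 in parent, a rise of 0.48. MDM2, a ubiquitin ligase, was not called (-0.18, adjusted p = 0.119). It was called lower with only the 6 libraries of R50_OFF and parent (adjusted p = 0.0196) and without R50 replicate 2 (adjusted p = 0.0156). Of 13 BCL2 family genes, 7 were higher and 2 lower. BCL2L1, the survival protein BCL-XL, had 6667, 6618 and 6802 in R50_OFF, against 11492, 11416 and 11468 in parent. BAD, which promotes death, had 4298, 4291 and 4594 in R50_OFF, against 3013, 3168 and 3257 in parent. BID, which does as well, had 1489.8, 1425 and 1528 in R50_OFF, against 1121, 1109.6 and 1100.5 in parent. BCL2L1 fell and both others rose.

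Most DNA repair genes changed by less than 2-fold, and their counts moved with the adjustment for transcript length. Of 8 genes of mismatch repair 6 were lower and 0 higher (median -0.28), but adjusted for length 3 were lower (median -0.15), and the count was 2 or 3 without R50_OFF replicate 2 or 3 or parent replicate 1 or 3. EXO1, its exonuclease, had 1728, 1577 and 1612 in R50_OFF, 638, 628 and 546 in R50 and 2747, 2519.8 and 2806 in parent. MLH3, of the MutL family, had 799, 818 and 699.9 in R50_OFF, against 1232, 1251 and 1192 in parent. Both fell. MSH6, of mismatch recognition, had 1827, 1659.8 and 1648 in R50_OFF, 977, 1062 and 967 in R50 and 1917, 1906 and 1894 in parent. Its call (adjusted p = 0.0377) was lost with the length adjustment. It was also lost without R50_OFF replicate 2 or 3 or any 1 parent library (adjusted p = 0.0814 to 0.126). The same held with quantile normalization (adjusted p = 0.159), without a filter on low values (0.0655) and without the variance trend (0.0652). R50_OFF stood above R50 in MSH6 (adjusted p = 9.06e-07). PMS2, at -0.36, was called (adjusted p = 0.0298), but not with the length adjustment (adjusted p = 0.226) or without a filter on low values (adjusted p = 0.0503). Nor was it called without R50_OFF replicate 2 or 3 or parent replicate 1 or 3 (adjusted p = 0.0522 to 0.12).

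Of 27 genes that act in homologous recombination or the Fanconi pathway, 11 were lower and 6 higher, against 6 and 6 adjusted for length. XRCC3, of strand exchange, had 3171, 3198 and 3464 in R50_OFF, against 1778, 1911 and 1702 in parent. BRCA2, a mediator of strand exchange, had 451, 460.3 and 401 in R50_OFF, against 724, 792 and 707 in parent. The helicase gene BRIP1 had 692, 779.5 and 692 in R50_OFF, against 1072, 1083 and 1023 in parent. XRCC3 rose by 0.87, and BRCA2 and BRIP1 fell by 0.76 and 0.56. Translesion genes, whose polymerases copy damaged DNA, were lower in 7 of 12 (5 adjusted for length). REV3L, the catalytic subunit of polymerase zeta, had 665, 641 and 575 in R50_OFF, 1151, 1274 and 1136 in R50 and 1465, 1494 and 1486 in parent. MAD2L2, its partner subunit, had 2256, 2162 and 2226 in R50_OFF, against 1579, 1644 and 1609 in parent. REV3L fell by 1.24 and MAD2L2 rose by 0.46. ATM, a kinase activated by strand breaks, had 728, 683 and 649.7 in R50_OFF, against 1751, 1639.6 and 1576 in parent. ATR, the kinase of stalled replication, had 461, 432 and 407 in R50_OFF, against 794, 754 and 775 in parent. They fell by 1.27 and 0.84, in a list with 4 higher and 5 lower of 14. ATM and REV3L have long transcripts, and both calls held with the length adjustment.

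Alkyl damage and base excision repair formed the repair list with more members higher, 9 of 20, with 3 lower. Adjusted for length the counts were 5 and 4. APEX1, which cuts DNA at sites without a base, had 10056, 9775 and 10157 in R50_OFF, 9460.5, 8978 and 8979 in R50 and 5711, 6179 and 6019.9 in parent (0.74, SE 0.04, adjusted p = 2.77e-07). PARP1, which marks strand breaks, had 21742, 21209.6 and 22086 in R50_OFF, against 16711, 15756 and 16092 in parent. OGG1, a glycosylase of oxidized guanine, had 619, 599.8 and 619 in R50_OFF, against 704, 780.0 and 763 in parent. APEX1 and PARP1 rose and OGG1 fell. MPG, the glycosylase of methylated purines, changed by 0.23 (adjusted p = 0.00365), a call lost with the length adjustment.

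Nuclear genes of oxidative phosphorylation were higher in 56 of 77 and lower in 0, none by 2-fold, with a median of 0.31. These genes have short transcripts, and adjusted for length 49 were higher and 2 lower with a median of 0.24. COX5B, of cytochrome oxidase, had 14914, 13956 and 14667 in R50_OFF, against 8810.5, 9481 and 9855 in parent. ATP5ME, of ATP synthase, had 15180.5, 15404 and 16268 in R50_OFF, against 9188, 9382 and 11044 in parent. CYCS, cytochrome c, had 7067, 7778 and 7435 in R50_OFF, against 4479, 4732 and 4875 in parent. All 3 rose, by 0.63, 0.67 and 0.66. The 13 genes encoded by the mitochondrion itself went the other way, 10 lower and 0 higher, with a median of -0.40 (-0.56 adjusted for length). The lower count was 6 without R50_OFF replicate 3 and 6 without parent replicate 3. MT-CYB, of complex III, had 22460.1, 21325 and 20686 in R50_OFF, against 28044, 29813 and 32159 in parent. MT-ATP6, of ATP synthase, had 41528, 40875 and 36402 in R50_OFF, against 47896, 54419 and 56261 in parent. Of 75 cytosolic ribosomal protein genes, also of short transcripts, 51 were higher and 1 lower (median 0.27), and adjusted for length 37 and 3 (median 0.14). Proteasome subunits were split, 9 higher and 6 lower of 31, or 48.4% called, near the 52.0% of all tested genes. With the length adjustment 5 of the proteasome subunits were higher and 5 lower.

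Hypoxia response genes were lower in 25 of 34 and higher in 3, with a median of -0.33 (23 and 3 adjusted for length). EGLN3, a hydroxylase that marks HIF for decay, had 255, 215 and 195 in R50_OFF, 701, 654 and 661 in R50 and 1718, 2361 and 2269 in parent (-3.24, SE 0.12, adjusted p = 1.32e-08). VLDLR, a lipoprotein receptor, had 1430.0, 1467 and 1456 in R50_OFF, against 2808, 2891 and 2973 in parent. LOX, which crosslinks collagen, went the other way, with 7640.0, 8597 and 8184 in R50_OFF, against 2945, 3501 and 3375 in parent. Of 27 genes of glycolysis and the pentose phosphate pathway, 11 were lower and 3 higher. Adjusted for length, 0 were higher and 13 lower. HK2, a hexokinase, had 1666, 1738 and 1603 in R50_OFF, against 2397, 2499 and 2502 in parent. GAPDH, often used as a reference gene, was 165564 ± 12743 in R50_OFF and 199417 ± 5647 in parent (SD, n = 3 each), a fall by 0.27.

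A mixed list of NRF2 targets and glutathione and iron genes was lower in 17 of 37 and higher in 8. HMOX1, heme oxygenase, had 6014, 6055 and 6042 in R50_OFF, 8729.9, 8101 and 8278 in R50 and 21988, 29274 and 25454 in parent (-2.07, SE 0.08, adjusted p = 1.95e-08). AKR1C1, a reductase with near-identical copies beside it on chromosome 10, had 490.4, 466 and 425 in R50_OFF, against 2454, 2069 and 2115 in parent. AKR1C3, of the same cluster, had 404, 334 and 369 in R50_OFF, against 1134, 1212 and 1165 in parent. R50_OFF kept 23.6% of the parent level of HMOX1, 20.8% of AKR1C1 and 31.5% of AKR1C3. Lysosome and autophagy genes were lower in 24 of 40 and higher in 6. CTSL, a cathepsin protease, had 13290.5, 14265 and 14245 in R50_OFF, against 27827, 28605 and 29831 in parent. CTSK, another cathepsin, had 764, 706 and 787 in R50_OFF, 2867, 2766 and 2649 in R50 and 1879, 1897 and 2009.8 in parent. NPC1, which exports cholesterol from lysosomes, had 5284, 5182 and 4873 in R50_OFF, against 11272, 10342 and 10578 in parent. The 3 genes fell by 1.05, 1.36 and 1.07. Metallothioneins, which bind metals, moved in both directions. MT1M was 125, 148 and 131 in R50_OFF and listed at 0 in parent, while MT3 had 0, 0 and 4.01 in R50_OFF, against 91.2, 149 and 175 in parent, both named after their values were seen. MT1E had 5508, 5244 and 5019.6 in R50_OFF, against 2814, 2851 and 2851 in parent. MT1X had 2302, 2136 and 1910.2 in R50_OFF, against 3716, 3926 and 3846 in parent. MT1E rose by 0.89 and MT1X fell by 0.86, in a family with near-identical copies.

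Sterol genes were lower in 13 of 25 and higher in 6. INSIG1, a sterol sensor partner, had 1604, 1674 and 1755 in R50_OFF, against 3691, 3622 and 3843 in parent. MSMO1, of cholesterol synthesis, had 588, 653 and 537 in R50_OFF, against 964, 993 and 919 in parent. Both fell. Of 39 lipid genes 19 were lower and 7 higher. CPT1A, which passes fatty acids to mitochondria, had 3099, 3310.2 and 3199.9 in R50_OFF, against 6534, 6431 and 5901 in parent. DGAT2, of triglyceride synthesis, had 392, 356 and 371 in R50_OFF, against 889, 925 and 776 in parent. ABCA1, which exports cholesterol, had 2746, 3023 and 2610.3 in R50_OFF, against 6125, 6042 and 6049 in parent. The 3 genes fell by 0.97, 1.21 and 1.12. SCD5, a fatty acid desaturase, had 413, 432 and 402 in R50_OFF, against 159, 171 and 190.2 in parent. SCD5 rose by 1.26. ABC transporters were lower in 14 of 21 and higher in 4. Adjusted for length, 4 were higher and 11 lower. ABCC2 had 318, 308 and 281 in R50_OFF, against 687, 649 and 647 in parent. ABCC4 had 971, 974 and 937 in R50_OFF, against 599, 613 and 636 in parent. The multidrug pump gene ABCG2 had 25.6, 20.3 and 25.8 in R50_OFF, against 71.7, 59.4 and 58.5 in parent. ABCC2 and ABCG2 fell by 1.13 and 1.37, and ABCC4 rose by 0.64.

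Retinoid genes were lower in 9 of 18, 7 of them at least 2-fold, and higher in 2. TGM2, transglutaminase 2, had 2449, 2270.3 and 2437 in R50_OFF, 3589, 3727 and 3459 in R50 and 7817, 7659.9 and 7132 in parent. CRABP2, which carries retinoic acid to the nucleus, had 461, 452 and 504 in R50_OFF, 1758, 1524 and 1603 in R50 and 1305, 1443 and 1479.6 in parent. ALDH1A3, which makes retinoic acid and is a marker of mesenchymal glioma stem cells, had 24991, 26270.0 and 25893 in R50_OFF, 2468, 2717 and 2415 in R50 and 53048, 51994 and 50863 in parent. All 3 fell relative to parent, while against R50 ALDH1A3 was higher and CRABP2 lower. ATF4 and unfolded protein genes were split, 12 higher and 11 lower of 32. Adjusted for length, 9 were higher and 13 lower. Within the list, SLC7A5, an amino acid carrier, had 1914, 1756 and 1914 in R50_OFF, 740.1, 729 and 747 in R50 and 798, 812 and 767 in parent. SLC3A2, its partner chain, had 11043, 10036 and 10534 in R50_OFF, against 7370.2, 6511 and 6549 in parent. They rose by 1.23 and 0.63. Of 24 heat shock genes, 11 were higher and 6 lower. HSPB1, a small heat shock protein, had 15244, 14151 and 15129.9 in R50_OFF, against 6366, 6079.7 and 6318 in parent. HSPB8, of the same family, had 1837, 1618 and 1839.5 in R50_OFF, 4363, 4092 and 4474 in R50 and 3046, 3171 and 2952 in parent. HSPB1 rose and HSPB8 fell. Of 13 sialyltransferase genes, 3 were higher and 5 lower, and ST3GAL1, which caps O-glycans, had 1507, 1474 and 1489 in R50_OFF, against 4268, 3855 and 4386 in parent, a fall by 1.48. With the length adjustment 4 of the sialyltransferases were higher and 4 lower.

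Identity markers did not move as 1 group. Of 14 glioma stem and progenitor markers, 6 were higher and 2 lower. Adjusted for length, 10 were higher and 2 lower. SOX2, a stem cell factor, had 23.1, 23.02 and 28.1 in R50_OFF and was listed at 0 in parent. NES, nestin, had 18.8, 21.5 and 21.8 in R50_OFF, 62.3, 61.9 and 66.7 in R50 and 60.6, 64.6 and 70.4 in parent, a fall by 1.61. OLIG2, a glial lineage factor named after its values were seen, was 75.4 ± 11.9 in R50_OFF and 20.3 ± 3.66 in parent. All of these were low levels in both groups. CD44 was not called (0.10, adjusted p = 0.0926), but was called higher in 5 alternatives, among them the length adjustment (0.21, adjusted p = 0.0008) and quantile normalization (0.25, adjusted p = 0.00556). Of 28 mesenchymal glioma markers, 9 were higher and 9 lower (11 and 9 adjusted for length). Of 15 EMT factors and epithelial genes, 1 was higher and 6 lower (46.7% called, beside 52.0% of all tested genes). PRRX1, a mesenchymal factor, had 2054, 1942 and 1782 in R50_OFF, 1068, 1228 and 1045 in R50 and 4021, 4626 and 4497 in parent. ZEB1 had 921, 976 and 949 in R50_OFF, against 1367, 1413 and 1376 in parent, both lower. SNAI1, the member that was higher, named after its values were seen, was 61.9 ± 12.3 in R50_OFF and 6.81 ± 1.67 in parent. Of 15 keratin genes, 5 were higher and 3 lower. The length adjustment gave 4 higher and 4 lower. KRT8, of simple epithelia, had 679, 592 and 576 in R50_OFF, 915, 727 and 938 in R50 and 161, 143 and 154 in parent. KRT7, also of simple epithelia, had 699, 609.5 and 705 in R50_OFF, 1394, 1019 and 1388 in R50 and 252, 214 and 259 in parent. They rose by 2.00 and 1.47, with values that near-identical keratin copies make uncertain.

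HOX genes, which pattern the body, were mostly higher. Of 18 HOX genes, 12 were higher and 1 lower, with a median of 0.41, and adjusted for length 9 and 1. Most were low, and only HOXB2 and HOXD8 met the level of the naming rule. HOXB2 had 489, 525 and 591 in R50_OFF, against 476, 422 and 465 in parent. HOXD8 had 435, 421 and 469.7 in R50_OFF, against 350.2, 393 and 337 in parent. They had changes of 0.23 and 0.30 that did not pass in every alternative. HOXD10, named after its values were seen, was listed at 0 in every R50_OFF library, against 36.1, 21.4 and 26.8 in parent. T-box and LIM-only genes were split, 3 higher and 4 lower of 9, with a median of -0.14 (3 and 3 adjusted for length). TBX3, a relative of TBX2, had 301, 291 and 309.8 in R50_OFF, 824, 919 and 892 in R50 and 870.1, 858 and 841 in parent, a fall by 1.51.

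Imprinted genes, which are read from 1 parental copy through DNA methylation, changed at a few members by a great deal. Of 23 tested, 5 were higher and 9 lower. NDN, necdin, was listed at 0 in every R50_OFF and R50 library, against 182, 161 and 148 in parent. Its promoter is shown for its 30 CG dinucleotides in 250 bases, in capitals, beside a median of 11 over all promoters and of 21 over those of tested genes (RefSeq, GRCh38.p14). Imprinted genes that changed far less held more, with 33 CG in IGF2R and up to 40 in GRB10.
NDN, chr15:23687306-23687555, minus strand: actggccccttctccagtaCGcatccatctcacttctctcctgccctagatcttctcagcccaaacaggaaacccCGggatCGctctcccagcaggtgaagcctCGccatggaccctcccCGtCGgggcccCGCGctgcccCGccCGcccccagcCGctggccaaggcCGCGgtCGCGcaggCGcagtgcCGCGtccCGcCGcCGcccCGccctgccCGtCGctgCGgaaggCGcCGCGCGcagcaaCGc

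MEST, a hydrolase, had 10.9, 19.1 and 25.3 in R50_OFF, 17.3, 25.2 and 11.4 in R50 and 347, 401 and 374 in parent (-4.34, SE 0.31, adjusted p = 1.17e-06). DIRAS3, a small GTPase that restrains growth, had 309, 347 and 288 in R50_OFF, 305, 311 and 330.1 in R50 and 6.08, 19.2 and 13.4 in parent (4.63, SE 0.29, adjusted p = 4.62e-07). MEG3, a long noncoding RNA, had 38.99, 40.99 and 30.8 in R50_OFF, 2.86, 2.897 and 7.85 in R50 and 4.64, 1.74 and 0 in parent. MEST fell and DIRAS3 and MEG3 rose, and DIRAS3 did not differ past the threshold between R50_OFF and R50 (adjusted p = 0.985). NDN, MEST, DIRAS3 and MEG3 were picked for their change. The imprinted genes at higher levels changed little: IGF2R had 5100.0, 4925 and 4434 in R50_OFF, against 7522, 7159.7 and 7217 in parent. GRB10 had 1963, 1959 and 1918 in R50_OFF, against 2669, 2635 and 2546 in parent. PHLDA2 had 1223, 1184 and 1250.1 in R50_OFF, against 892, 828 and 761 in parent. TATAAA or TTTATA was in 50% of the 10 promoters of higher and in 4.76% of the 21 promoters of lower imprinted genes, several of them alternative starts of 1 gene. The 10 promoters belong to MEG3, GNAS and DIRAS3 alone, and the overlapping windows of MEG3 hold the same site. Of 30 genes of DNA methylation and KRAB silencing, 9 were higher and 8 lower. The length adjustment gave 11 higher and 6 lower. DNMT1, which copies methylation after replication, had 11184, 10532 and 10719.7 in R50_OFF, against 14380.2, 14099 and 14000.5 in parent, a fall by 0.39, and SETDB1, a histone methyltransferase of KRAB silencing, had 959, 905 and 1021 in R50_OFF, against 1366, 1317 and 1273 in parent. DNMT3A, which adds new methylation, was 243 ± 30.1 in R50_OFF and 89.6 ± 13.9 in parent, a rise of 1.43, and was named after its values were seen. DNA methylation itself was not measured in these files.

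Zinc finger genes of the KRAB type, repressors that lie in clusters on chromosome 19, rose as neighbours. Of 30 tested genes at 19p12, 26 were higher, 22 of them at least 2-fold, and 1 lower, with a median of 2.78. The members that rose most lay at low levels in parent, and of those that follow ZNF93 was named after its values were seen. ZNF91, which represses mobile elements, had 78.6, 108 and 71.6 in R50_OFF, 749, 875 and 796 in R50 and 0, 3.95 and 3.17 in parent. ZNF681 had 89.1, 106 and 77.8 in R50_OFF, 688, 945 and 741 in R50 and 1.71, 2.99 and 3.597 in parent. ZNF93 had 136, 143 and 137 in R50_OFF, 649, 641 and 572 in R50 and 8.44, 8.62 and 5.92 in parent. In these 3 genes R50_OFF lay above parent in every library and below R50. ZNF208 had 51.8, 50.8 and 51.4 in R50_OFF, 260.1, 285 and 285 in R50 and 0, 0 and 1.45 in parent, again between both. The window of 20 to 30 Mb of chromosome 19 held 58 tested genes, 33 higher and 2 lower, with a median of 1.27 against parent and of -2.44 against R50.

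Rises of neighbouring genes were also found elsewhere. Runs of at least 4 neighbouring tested genes that were all called and at least 2-fold changed the same way numbered 25, of which 24 were higher and 1 was lower. Of the runs, 7 lay on chromosome 19 and held 44 genes, many of them zinc finger genes. The longest, of 9 genes at chr19:52297169-52597345 from ZNF480 to ZNF137P, had a median of 3.20, and a run of 7 at chr19:52702813-52962911 from ZNF611 to ZNF816 had a median of 4.71. ADARB2 lay in a run of 7 at chr10:1177313-2618739 with noncoding neighbours, at a median of 3.62. MAGEB2 lay in a run of 7 at chrX:27042907-30617693 with NR0B1, a nuclear receptor, and IL1RAPL1, a synaptic receptor. MAGEA12 and CSAG1 lay in a run of 5 at chrX:152698767-152760222 with MAGEA3, CSAG4 and CSAG3. SIGIRR lay in a run of 6 at chr11:303655-417455 with the antiviral genes IFITM1, IFITM2 and IFITM3. IFITM3 had 3770.3, 3568 and 3802 in R50_OFF, 9386, 7903 and 10337 in R50 and 716, 732 and 752 in parent. IFITM2 had 2794, 3003 and 3136 in R50_OFF, 6667, 5861 and 7052 in R50 and 399, 428 and 490.4 in parent. Both were higher than in parent and lower than in R50. The 1 lower run held AKR1C1, AKR1C2, AKR1C3 and a gene without a symbol. Coordinates are those of GENCODE on hg38, and the runs and the IFITM genes were described after the changes were known.

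Beyond runs, whole regions shifted by small amounts. On chromosome 22 44.1% of tested genes were higher and 12.3% lower (median 0.20), on chromosome 14 39.1% and 14.6% (median 0.19), and on chromosome 19 39.5% and 13.6% (median 0.16), beside 26.3% and 25.7% over all genes. On chromosome 13 the windows of 90 to 100, 100 to 110 and 110 to 120 Mb had medians of 0.74, 0.60 and 0.61, with 22 of 31, 18 of 28 and 22 of 36 genes higher. Among them, FARP1, an exchange factor of small GTPases, had 800.2, 795 and 792 in R50_OFF, 272, 335 and 302 in R50 and 109.9, 107 and 90.05 in parent. PCID2, of mRNA export, had 3352, 3010.5 and 3073 in R50_OFF, 2376, 2395 and 2272 in R50 and 1474, 1440.3 and 1462 in parent. IPO5, already named for its gain in signal, lies there too. R50_OFF lay above both other groups in FARP1 and PCID2. The chromosome 13 windows as a whole did not stand above R50, with medians of -0.42, -0.02 and -0.11 against it. The windows of 140 to 150 Mb on the X chromosome (24 genes, 13 higher, 0 lower, median 0.66) and of 130 to 140 Mb on chromosome 12 (37 genes, 21 higher, 6 lower, median 0.56) also stood high. Both hold a run of rises, of 5 genes from MAGEC2 to SLITRK2 on X and of 6 genes with ADGRD1 on chromosome 12. At least 2-fold higher were 9 and 10 genes. Against R50 the medians of these windows were -0.45 and 0.28. ADGRD1, an adhesion receptor in the chromosome 12 window that was named after its values were seen, had 237, 225 and 221 in R50_OFF, 549, 549.5 and 570.2 in R50 and 14.8, 20.7 and 12.4 in parent. The lowest windows were 90 to 100 Mb of chromosome 3 (21 genes, 13 lower, median -0.37) and 80 to 90 Mb of chromosome 12 (22 genes, 8 lower, median -0.35). GC content and transcript length differ between regions, and their part in these shifts was not tested. DNA copy number was not measured in these files.

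**Figure D5:**
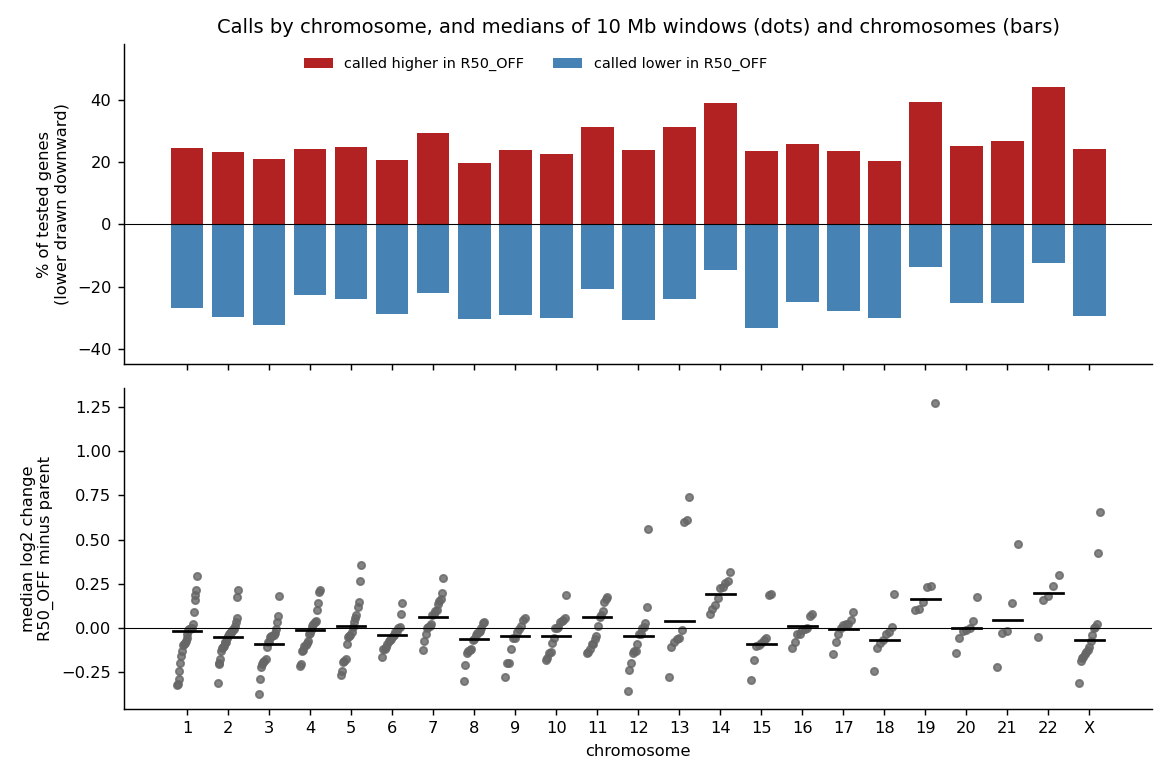
Top, the share of tested genes called higher (red, upward) or lower (blue, downward) in R50_OFF relative to parent on each chromosome. Bottom, the median log2 change of each chromosome (black bar) and of each window of 10 Mb with at least 10 tested genes (grey dot), with the window of 20 to 30 Mb of chromosome 19 at 1.27 above all others.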

How the data were processed

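Poly-A RNA of 9 libraries was sequenced from strand-specific preparations, per the labels' protocols. The tool bcl2fastq 2.17.1.14 and the hg38 build are listed in the submitters' processing notes. No aligner, counting tool or strand setting is given in the sources used here. Per the file headers, the authors scaled the deposited signal across libraries and per kilobase of median transcript length. It traced to whole reads divided by a library factor and a length in 100% of genes, within a relative tolerance of 1e-08, and the factors equalled median-of-ratios factors. The smallest whole reads that fit were taken, so the depths summed from them are minimum values.

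Coordinates came from GENCODE version 44 on hg38, which matched 33137 of the gene IDs (99.62%). Genes that reached a minimum value of 10 in 3 or more libraries were tested on log2(value + 1) with limma 3.58.1 in R 4.3.3, with an empirical Bayes trend, all 9 libraries and 6 residual degrees of freedom, two-sided, with Benjamini-Hochberg adjustment over all tested genes at 0.05. The fit was checked on simulated reads with the same dispersion in every gene and library and no trend with length or GC. That check therefore does not cover these features of the data. Replicate pairs differed beyond counting noise: their chi-square per gene was 5.45 to 6.92 in R50_OFF, 4.64 to 18.1 in R50, where replicate 2 stood apart, and 2.37 to 4.36 in parent, and each counted as 1 sample.

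The members and gene lists were chosen with earlier results of these data known. Named genes were, among called genes without overlap and at or above the median level, the 20 that rose most and the 20 that fell most, up to 4 such members of each list, the 10 largest gains and the 10 largest losses of mean value, up to 4 called genes of each region described, and a fixed set of 20 genes. Genes named outside this rule are marked, and some genes that the rule takes are not reported here. MGMT and CDKN2A were not analysed here. Values of near-identical families and of antisense genes are uncertain.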

Additional observations from a re-analysis of the deposited data

How the results depend on the processing

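The planned count test on whole reads was not run, because the deposited values are no counts. Against 4334 higher and 4231 lower genes, 1238 and 841 of them at least 2-fold, the other settings gave 3766 to 4758 higher and 3877 to 4577 lower genes with all R50_OFF and parent libraries kept. With a minimum value of 50, which tests fewer genes, 714 were at least 2-fold higher and 521 at least 2-fold lower. Quantile normalization gave 1024 and 994, so the excess of 2-fold rises over falls was nearly lost there. The counts were 939 and 671 on log2(value + 8), and 1547 and 1083 without a filter on low values. Counts of larger changes are given here for the main fit alone, so their balance under quantile normalization is not known. Leaving out 1 R50_OFF or parent library in turn gave 3689 to 3914 higher, 3490 to 3890 lower, 1069 to 1226 at least 2-fold higher and 693 to 839 at least 2-fold lower genes, and 4563 and 4577 genes were higher and lower without R50 replicate 2.

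With a replicate block the counts were 4454, 4357, 1246 and 841, and no named gene changed its call. Same-numbered libraries deviated together only weakly (correlations of 0.15, 0.09 and 0.02, others -0.13 to 0.07), so the numbers were not taken as pairs.

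Of 312 named genes, 291 kept direction and side of the threshold in all 18 alternatives. The adjustments for transcript length and GC and the test on traced reads (limma voom) were chosen after seeing the data. Signs turned for EGFR (0.18 with length, 0.13 with length and GC), MDM2 (0.013 and 0.078), MSH6 (0.039 and 0.066) and MPG (-0.053 with both), and the cause was not tested. Of 156 counts of lists and regions, 44 moved by over 1.5 times in some alternative. With 3 libraries a group and a trend with transcript length, small changes are the least certain.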

Other observations

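Long noncoding RNAs made up a larger share of the strongest rises than of all tested genes. Of the 185 genes at least 16-fold higher in R50_OFF, 48 were lncRNAs (25.9%, beside 13.8% of all tested genes), 34 were zinc finger genes by their symbols (18.4%, beside 2.84%), 35 lay on chromosome 19 (18.9%, beside 6.63%) and 25 on the X chromosome (13.5%, beside 3.65%). In 50 of the 185 all 3 parent libraries were listed at 0. The 54 genes at least 16-fold lower held 5 lncRNAs and 7 X-linked genes, and 16 were listed at 0 in all R50_OFF libraries. The median number of CG in the 250 bases before the start was 14 over the 114 strongly higher genes with a promoter in the reference table, 9 over the 33 strongly lower ones, and 21 over the 11231 tested genes with one. These shares describe genes chosen by their change and carry no test.

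Of further genes with 0 in every parent library, GALC, a lysosomal enzyme, had 25.7, 23.2 and 41.5 in R50_OFF, and its neighbour GPR65, a proton-sensing receptor, had 16.5, 25.1 and 18.3, both in a run of rises on chromosome 14. R50 had 1.91, 2.91 and 1.01 for GALC and 0.206, 0.208 and 0 for GPR65. RIMBP2, a protein of presynaptic active zones, had 43.9, 25.8 and 47.4 in R50_OFF and 114, 109 and 117 in R50. On chromosome 22, SCUBE1, a secreted protein, had 297, 305 and 293 in R50_OFF, 39.7, 48.98 and 49.2 in R50 and 12.00, 6.996 and 16.8 in parent (4.61, SE 0.25, adjusted p = 1.37e-07). MB, myoglobin, had 69.1, 70.2 and 82.99 in R50_OFF, 79.9, 42.8 and 38.2 in R50 and 3.49, 7.64 and 7.35 in parent (3.45, SE 0.32, adjusted p = 8.06e-06). These genes were picked after their values were seen.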
